A study of Bos taurus with 31 samples.

Results

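A set of 8 genes of hepatic cholesterol synthesis was followed in the liver transcriptome of dairy cows: HMGCS1, MVD, IDI1, FDPS, FDFT1, SQLE, LSS and INSIG1. They were taken by symbol from the raw gene counts, where all 8 were present among 24616 genes, and all 8 were among the 15916 genes that passed the filter on low counts. The first 7 encode enzymes on the route from acetyl-CoA to lanosterol, and INSIG1 encodes a sterol-dependent brake on that route. None of the 8 encodes an uptake receptor, so cholesterol uptake was read from a separate list of uptake genes.

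The liver builds cholesterol from acetyl-CoA through mevalonate, the isoprenoid diphosphates, squalene and lanosterol. When sterols in the endoplasmic reticulum run low, the sensor SCAP carries the transcription factor SREBP2 (gene SREBF2) to the Golgi, where it is cleaved and released to switch on the genes of the pathway. When sterols are plentiful, INSIG proteins hold SCAP back.

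RNA-seq was available from liver biopsies of 31 lactating German Holstein cows taken at the end of a feeding trial, with 1 library per cow. The 2 × 2 design gave 8 cows in CONHC, fed a control ration with a high concentrate feed proportion (CFP), and 8 in CONLC, fed a control ration with a low CFP. In GLYHC 8 cows, and in GLYLC 7 cows, received a ration contaminated with residues of the herbicide glyphosate (GLY), again with a high or a low CFP. The control ration was not free of glyphosate, since it carried background residues, and a higher feed intake of HC cows meant that GLYHC and GLYLC did not take up the same amount. The comparisons asked whether glyphosate residues, the CFP or their combination altered hepatic gene expression.

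The number of reads assigned to genes was between 11675775 and 36675542 per cow, and the least abundant of the 8 genes in any library still had 482 reads, those of MVD. The 6 hepatocyte markers summed to between 107200 and 190800 CPM (the reads of a gene as a share of the TMM-scaled library) in CON cows and to between 62290 and 177000 CPM in GLY cows, so hepatocyte RNA was present in every biopsy. Cow 912 of GLYLC stood apart: FABP2, a fatty acid binding protein of the intestinal epithelium, reached 205.8 CPM in this library and at most 0.163 CPM in the other 30. In whole tissue, fewer cells of a type and less RNA per cell cannot be told apart.

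All 8 genes had lower fitted levels in GLY than in CON cows, both with a high and with a low CFP, but none passed the adjusted threshold. Over all cows the log2 fold changes lay between -0.75 for HMGCS1 and -0.22 for MVD, with a median of -0.35, against a median of 0.0037 over all genes tested. In edgeR's quasi-likelihood test 6 of the 8 had an unadjusted p under 0.05 (HMGCS1, IDI1, FDPS, FDFT1, SQLE and LSS), all with the lower level in GLY cows. Of all genes tested, 3.92% had such a p, and 1.45% had one with the lower level in GLY cows. Genes with a log2 fold change below 0 made up 48.5% of all genes. The 8 genes varied together across cows, as described below, so they do not count as independent genes against these shares. With Benjamini-Hochberg adjustment over all genes, 0 of the 8 and 0 of the 15916 genes were called at an adjusted p under 0.1, and the smallest adjusted p of any gene was 0.139. DESeq2 on all cows also called 0 of the 8 and 1 gene in all, with 6 of the 8 at an unadjusted p under 0.05. Without cow 912 of GLYLC the count was 6 as well, but not of the same 6 genes, since INSIG1 was then among them.

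HMGCS1 (ENSBTAG00000011839) encodes the cytosolic HMG-CoA synthase, which joins acetyl-CoA to acetoacetyl-CoA at the entry to the mevalonate pathway. In CONHC its level ran from 110.4 through a median of 209.7 to 759.3 CPM, and in CONLC from 147.6 through 335.2 to 523.9 CPM. In GLYHC it ran from 60.07 through 140.8 to 362 CPM, and in GLYLC from 71.67 through 165.9 to 430 CPM. The groups overlapped widely, but 13 of 15 GLY cows lay below the median of the CON cows. The mean was 297 ± 168 CPM in CON (SD, n = 16) and 175 ± 105 CPM in GLY (SD, n = 15). The log2 fold change of GLY against CON was -0.75 ± 0.28 (SE, n = 31, p = 0.0107), with an adjusted p of 0.968 in edgeR. Cow 134 of CONHC, with the highest level, carried part of this difference. Without it the log2 fold change over all cows was -0.54, and that of GLYHC against CONHC was -0.29 in place of -0.71.

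MVD (ENSBTAG00000012059), mevalonate diphosphate decarboxylase, forms the first isoprene unit, isopentenyl diphosphate. Its level ran from 38.0 through a median of 46.22 to 97.16 CPM in CONHC and from 40.94 through 61.52 to 85.84 CPM in CONLC. The GLY cows had from 34.06 through 47.25 to 64.58 CPM in GLYHC and from 30.9 through 46.46 to 76.92 CPM in GLYLC. The ranges of the 4 groups lay largely on top of each other, and the medians of CONHC and GLYHC were nearly equal. GLY differed from CON by a log2 fold change of -0.22 ± 0.13 (SE, n = 31, p = 0.113). In HC cows alone it was -0.16, and it turned to 0.03 without cow 134 of CONHC.

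IDI1 (ENSBTAG00000004075), isopentenyl diphosphate isomerase, supplies the second isoprene unit, dimethylallyl diphosphate. CON cows had from 122.7 through a median of 144.7 to 226.5 CPM in CONHC and from 146.1 through 175.6 to 208.8 CPM in CONLC. In GLYHC it ran from 85.21 through 126.7 to 154.9 CPM and in GLYLC from 93.02 through 115.2 to 197 CPM. Of the 15 GLY cows, 9 lay below the lowest of the 16 CON cows, and all 16 CON cows lay above the GLY median. The former count was the largest among the 8 genes. At -0.42 ± 0.11 (SE, n = 31, p = 0.00074, adjusted p = 0.590), the log2 fold change of GLY against CON stood at rank 16 of 15916 genes by p. Whichever cow was left out, the fold change stayed between -0.48 and -0.37.

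FDPS (ENSBTAG00000003948), farnesyl diphosphate synthase, condenses the isoprene units into farnesyl diphosphate, from which sterols, dolichol, ubiquinone and prenyl groups branch. The CPM of FDPS ran from 90.04 through a median of 110.5 to 174.9 in CONHC and from 76.32 through 129.7 to 155.8 CPM in CONLC. Among GLY cows the values were 60.43 through 89.45 to 111.1 CPM in GLYHC and 80.17 through 95.85 to 145.9 CPM. All but 1 of the GLY cows, 14 of 15, lay below the CON median. GLY against CON gave a log2 fold change of -0.35 ± 0.11 (SE, n = 31, p = 0.00258, adjusted p = 0.808), at rank 50.

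FDFT1 (ENSBTAG00000012432), squalene synthase, commits farnesyl diphosphate to sterols. Its level ran from 132.3 through a median of 207.5 to 430.9 CPM in CONHC and from 189.5 through 286.9 to 386.5 CPM in CONLC. GLYHC cows had 113.2 through 187.3 to 346.7 CPM and GLYLC cows 118.2 through 169.5 to 320.6 CPM. CONLC was the group that stood highest, and 12 of 15 GLY cows were below the CON median. Over all cows the log2 fold change was -0.35 ± 0.17 (SE, n = 31, p = 0.0471, adjusted p = 0.9999). It was -0.56 in LC cows and -0.14 in HC cows, and the latter became 0.07 without cow 134 of CONHC. The test of the difference between the rations gave 0.42 ± 0.33 (SE, n = 31, p = 0.213).

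SQLE (ENSBTAG00000005498), squalene epoxidase, adds the oxygen that later becomes the hydroxyl group of cholesterol and is a known control point of the sterol branch. Levels in CON cows ran from 79.65 through a median of 127.2 to 295.9 CPM in CONHC and from 86.96 through 169.2 to 195.1 CPM in CONLC. They ran from 34.03 through 92.04 to 168.7 CPM in GLYHC and from 60.44 through 134.1 to 185.6 CPM in GLYLC. The lowest cow, 127 of GLYHC, and the highest, 134 of CONHC, were 8.7-fold apart. Over all cows GLY against CON gave a log2 fold change of -0.50 ± 0.20 (SE, n = 31, p = 0.0161, adjusted p = 0.9999). In HC cows it was -0.59, or -0.35 without cow 134.

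LSS (ENSBTAG00000018936), lanosterol synthase, closes the sterol rings. CONHC and CONLC overlapped, with values from 154.4 through a median of 161.3 to 210.5 CPM in CONHC and from 122.8 through 171.8 to 197.2 CPM in CONLC. In GLYHC the level ran from 92.08 through 141 to 169.7 CPM and in GLYLC from 106.7 through 126.6 to 213.7 CPM. Although 13 of 15 GLY cows were below the CON median, the single highest value belonged to a GLY cow, 209 of GLYLC. The fitted log2 fold change of GLY against CON was -0.34 ± 0.09 (SE, n = 31, p = 0.000942, adjusted p = 0.590), at rank 20. Without cow 209 it was -0.40 with an adjusted p of 0.0842 in edgeR, and LSS alone of the 8 was then called.

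INSIG1 (ENSBTAG00000001592) encodes the membrane protein that retains SCAP in the endoplasmic reticulum, and it is itself switched on by SREBP. INSIG1 ran from 224 through a median of 270.1 to 489.7 CPM in CONHC and from 197.7 through 309.4 to 478.4 CPM in CONLC. It ran in GLYHC from 105 through 195 to 399.6 CPM and in GLYLC from 172.7 through 263 to 583.1 CPM. Although 6 GLY cows lay below every CON cow, the highest of all 31 was also a GLY cow, 912 of GLYLC, the library with the intestinal transcripts. For GLY against CON the log2 fold change was -0.29 ± 0.19 (SE, n = 31, p = 0.136). Without cow 912 it was -0.41 with an unadjusted p of 0.0245, and for GLYLC against CONLC it was -0.42 in place of -0.16. The part of intestinal RNA in the level of INSIG1 was not tested.

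**Figure D1:**
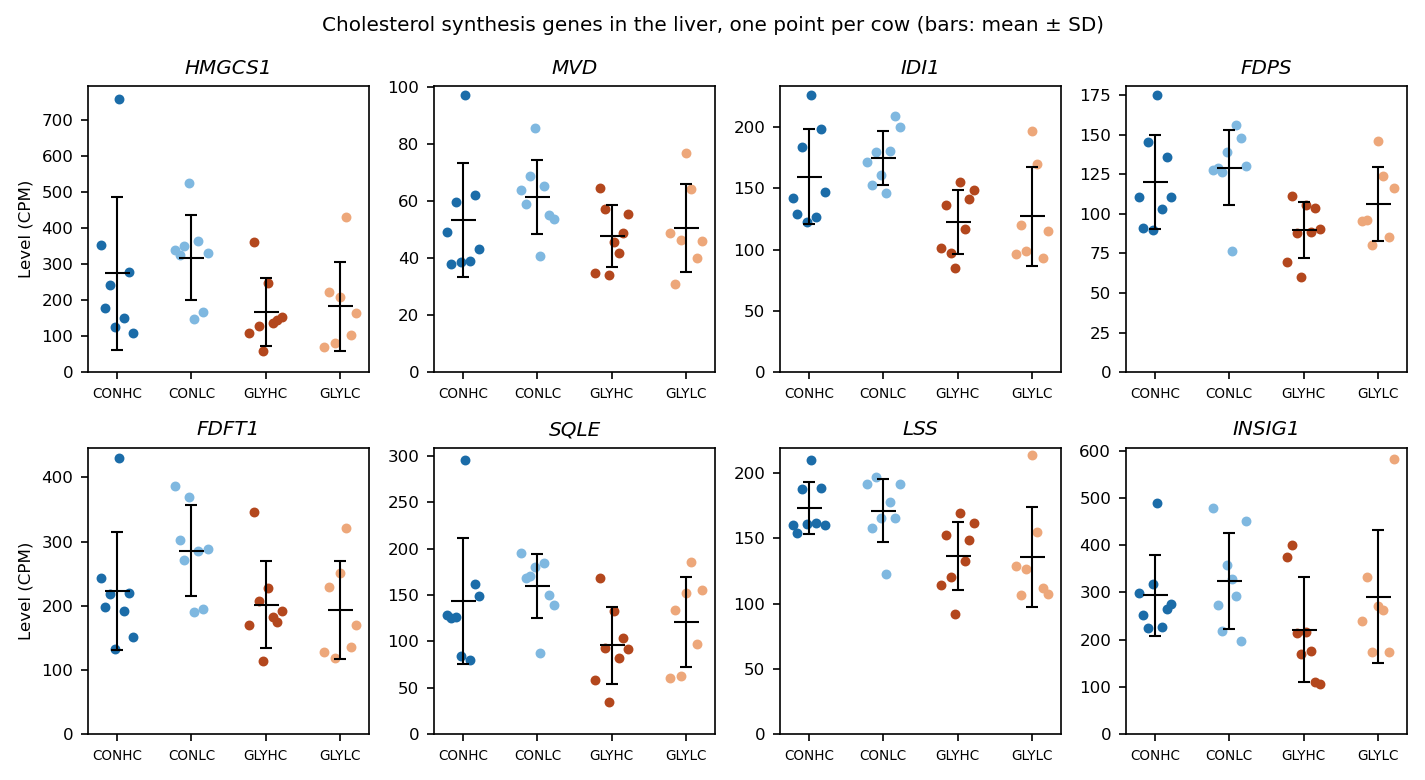
Levels of the 8 genes in CPM (vertical axes, each from 0) in every cow of the 4 feeding groups, with 1 point per cow and bars for the mean ± SD. The groups overlap for every gene, the GLY groups tend to lie below the CON groups, and the separate high point of CONHC for HMGCS1 at 759.3 CPM is cow 134.

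The 2 rations were fed to different cows, so the comparison of GLY with CON could be made once in HC and once in LC cows. In GLYHC against CONHC 8 of 8 genes had a log2 fold change below 0 (48.3% of all genes), with a median of -0.40, and 4 (IDI1, FDPS, SQLE and LSS) had an unadjusted p under 0.05. Among all genes 2.92% had such a p, and 1.31% had one with the lower level in GLYHC. In GLYLC against CONLC the median was -0.37, again with 8 of 8 below 0 (50.6% of all genes), and 3 genes (IDI1, FDFT1 and LSS) had an unadjusted p under 0.05. Here the shares among all genes were 5.65% and, with the lower level in GLYLC, 1.94%. Of all genes, 22.8% were below 0 in both rations.

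Only IDI1 and LSS of the 8 were lower in GLY at an unadjusted p under 0.05 in both rations. Among all 15916 genes, 8 were lower at that threshold in both. With adjustment, edgeR and DESeq2 each called 0 of the 8 in either ration, and edgeR called 0% of all genes in HC and 0.0628% in LC cows. The counts at the unadjusted threshold moved with single cows. In HC cows the count was 2 in place of 4 without cow 134 of CONHC, cow 170 of CONHC or cow 127 of GLYHC, and 6 without cow 37 of GLYHC. Without cow 134, 6 of the 8 were below 0, since MVD and FDFT1 turned. In LC cows the count was 5 in place of 3 without cow 169 of CONLC or cow 209 of GLYLC. The interaction of GLY with CFP had a median log2 value of 0.04 over the 8 genes, and 0 of them had an unadjusted p under 0.05, against 4.21% of all genes. Without cow 134 of CONHC that count was 1.

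**Figure D2:**
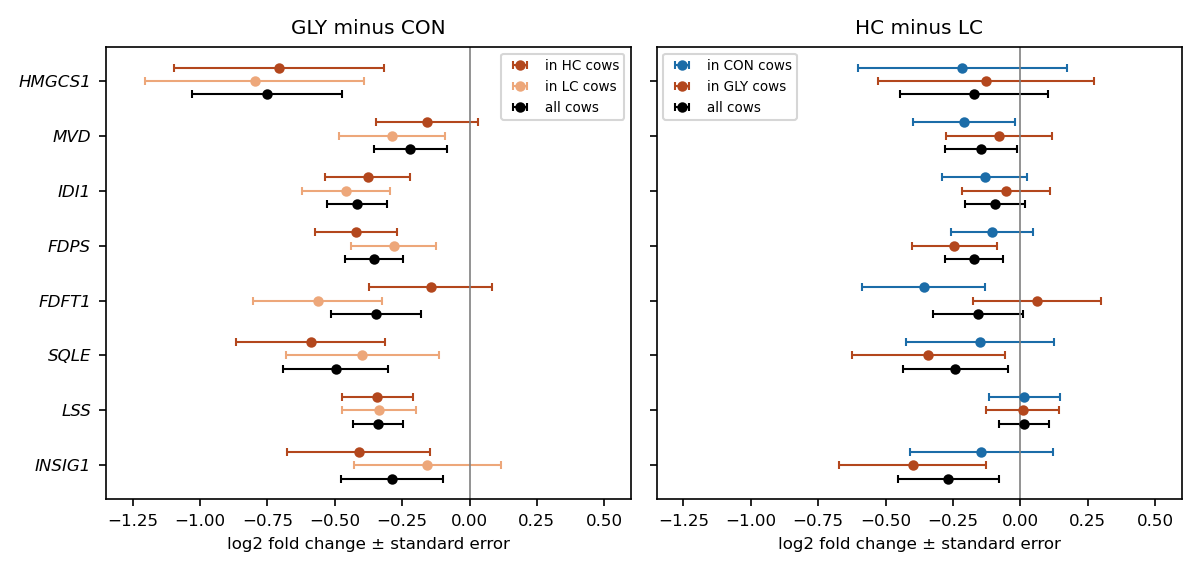
Log2 fold changes ± SE of the 8 genes for GLY minus CON (left) and HC minus LC (right), within each of the other factor's levels and over all cows, with 0 marked by a line. On the left all values lie below 0, from -0.80 for HMGCS1 in LC cows to -0.14 for FDFT1 in HC cows, and on the right most bars cross or nearly reach 0.

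None of the 8 genes passed the unadjusted threshold for the CFP. In HC against LC over all cows 0 of the 8 had an unadjusted p under 0.05, while 13.7% of all genes had. The same count without cow 134 of CONHC was 1, as it was without cow 169 of CONLC. The edgeR test with adjustment called 0 of the 8 and 231 genes in all (1.45%), and DESeq2 called 0 of the 8. In 7 of the 8 the log2 fold change was below 0, with a median of -0.16, and 54% of all genes were below 0 as well. The values ran from -0.27 ± 0.19 (SE) for INSIG1 to 0.01 ± 0.09 for LSS.

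Within CON cows, the median log2 fold change of HC against LC was -0.15, with 0 of 8 at an unadjusted p under 0.05 against 5.96% of all genes. FDFT1 had the smallest p, with -0.36 ± 0.23 (SE, adjusted p = 0.905). Without cow 134, 2 of the 8 passed the unadjusted threshold. Within GLY cows the median was -0.10, with 0 of 8 against 12.5% of all genes. FDPS had the smallest p there, with -0.24 ± 0.16 (SE, adjusted p = 0.546), and without cow 37 of GLYHC the count was 1. By edgeR with adjustment 0 of the 8 were called in either, against 0% of all genes in CON and 0.201% in GLY cows, and DESeq2 on all cows called 0 of the 8.

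INSIG2, the paralogue of INSIG1 that is not driven by SREBP in the same way, had log2 fold changes of -0.04 for the CFP and -0.08 for GLY.

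The 8 genes varied widely between cows of the same group. The biological coefficient of variation, which is the spread between cows beyond counting error, was 0.528 for HMGCS1, a value that exceeded those of 98% of the 6554 genes with a mean of at least 10 CPM. It was 0.381 for SQLE, 0.368 for INSIG1 and 0.322 for FDFT1, all above the 93rd percentile (95.9, 95.5 and 93.3). MVD had 0.268, IDI1 0.227 and FDPS 0.219. LSS was the steadiest with 0.193, still above the median of 0.158. Over all cows of the 4 feeding groups, the highest exceeded the lowest by 12.6-fold for HMGCS1 and by 2.32-fold for LSS. For both genes the highest and the lowest cow came from different groups, so these folds include any difference between groups. Between 13.3% (MVD) and 36.5% (IDI1) of the variance of log2 CPM lay between the 4 feeding groups, and the rest lay between cows of a group.

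The extremes were largely the same animals. Cow 134 of CONHC had the highest level of 6 of the 8 genes and was among the 5 highest cows for all 8. Cow 127 of GLYHC had the lowest level of 6 of the 8 and was among the 5 lowest for all 8. The mean of the 8 standardized genes, used as a score of the pathway, had a median of 0.03 in CONHC, 0.77 in CONLC, -0.55 in GLYHC and -0.41 in GLYLC. Below the median over all cows were 4 of 8 CONHC, 1 of 8 CONLC, 6 of 8 GLYHC and 4 of 7 GLYLC cows. The score ran from -0.55 to 1.91 in CONHC, from -0.51 to 1.07 in CONLC, from -1.96 to 0.62 in GLYHC and from -1.17 to 0.83 in GLYLC. The groups thus overlapped in part. Its correlation with log2 of the assigned reads was r = -0.13 (Spearman's rho = -0.07) over 31 cows.

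**Figure D3:**
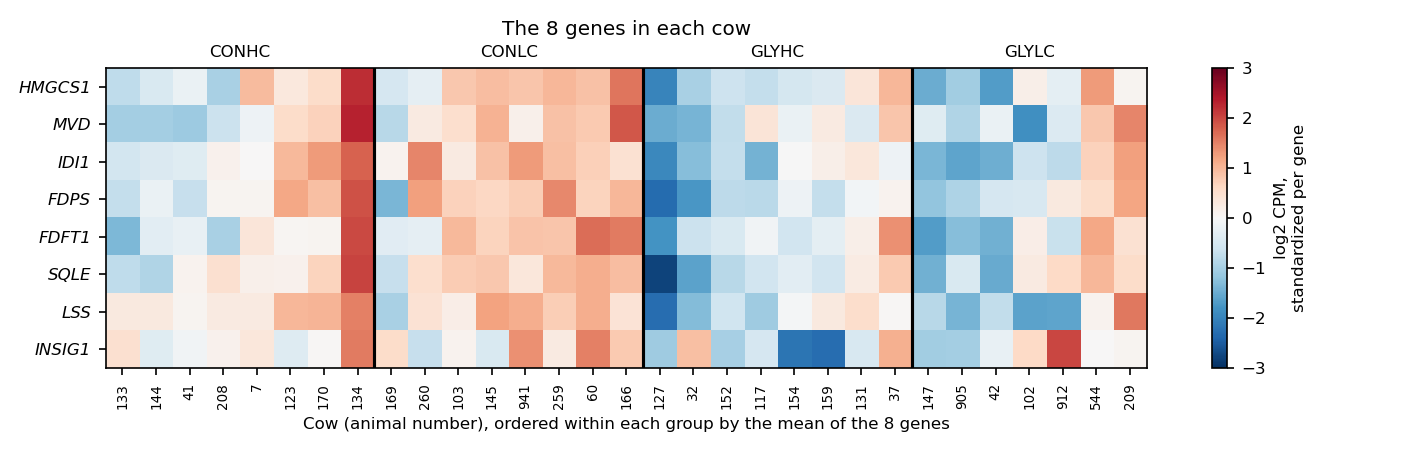
Log2 CPM of the 8 genes (rows) in each of the 31 cows (columns, by animal number), standardized per gene in SD units and ordered within each feeding group by the mean of the 8. Columns are mostly of a single colour, from cow 127 of GLYHC, lowest for 6 genes, to cow 134 of CONHC, highest for 6 genes, while the row of INSIG1 departs from the others.

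The 7 enzymes varied together across the animals. Over the 28 pairs, Pearson's r of log2 CPM across 31 cows had a median of 0.72 and ran from 0.15 to 0.95, and Spearman's rho had a median of 0.72. In two-sided permutation tests with 100000 resamples and adjustment over the 28 pairs, 24 pairs had an adjusted p under 0.05 by Pearson's r and 25 by Spearman's rho. The permutations ran over all 31 cows without regard to feeding group, so differences shared between groups enter these p values. The 21 pairs among the 7 enzymes all passed, with r between 0.63 and 0.95. For 14 of them the p was 1e-05, the smallest that the permutations can give, with an adjusted p of 2e-05. These levels come from the same libraries, so that anything that marks a whole library would enter every pair. With log2 of the assigned reads regressed out, the median r was 0.72. The part of other traits of a library was not tested.

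HMGCS1 and FDFT1 were the closest pair, with r = 0.95 and rho = 0.94 (permutation p = 1e-05 for both, adjusted p = 2e-05 and 2.55e-05). Each was the gene most correlated with the other among all genes tested. Without the 2 cows farthest from the median of HMGCS1 r was 0.93, and with feeding group means removed it was 0.95. IDI1 and LSS were each other's closest gene too, with r = 0.88 and rho = 0.88 (permutation p = 1e-05 for both), and with r = 0.84 without the 2 farthest cows. The enzyme closest to FDPS was SQLE, with r = 0.88 and rho = 0.83 (permutation p = 1e-05 for both) and r = 0.82 without the 2 farthest cows. The loosest pair of enzymes was FDFT1 with LSS, at r = 0.63 and rho = 0.62 (permutation p = 0.00018 and 0.00036, adjusted p = 0.00024 and 0.000504) and at r = 0.56 without the 2 farthest cows.

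INSIG1 followed the enzymes only in part. Its 7 correlations lay between 0.15 with LSS and 0.49 with FDFT1, and 3 passed adjustment. With FDFT1 r was 0.49 and rho 0.48 (permutation p = 0.00462 and 0.00619, adjusted p = 0.00588 and 0.00722). HMGCS1 gave r = 0.49 and rho = 0.49 (permutation p = 0.005 and 0.00534, adjusted p = 0.00609 and 0.00659). For SQLE the values were 0.48 and 0.50 (permutation p = 0.00667 and 0.00541, adjusted p = 0.00778 and 0.00659). Without the 2 farthest cows r was 0.37 for FDFT1, 0.40 for HMGCS1 and 0.55 for SQLE. With MVD, IDI1 and LSS neither coefficient passed, and with FDPS only Spearman's rho did (0.37, permutation p = 0.0416, adjusted p = 0.0466). Once group means were removed, the median r of the 7 pairs was 0.16, against 0.74 for the 21 pairs of enzymes. For the 3 pairs that passed, r was then 0.46 with FDFT1, 0.40 with HMGCS1 and 0.34 with SQLE, without a test.

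**Figure D4:**
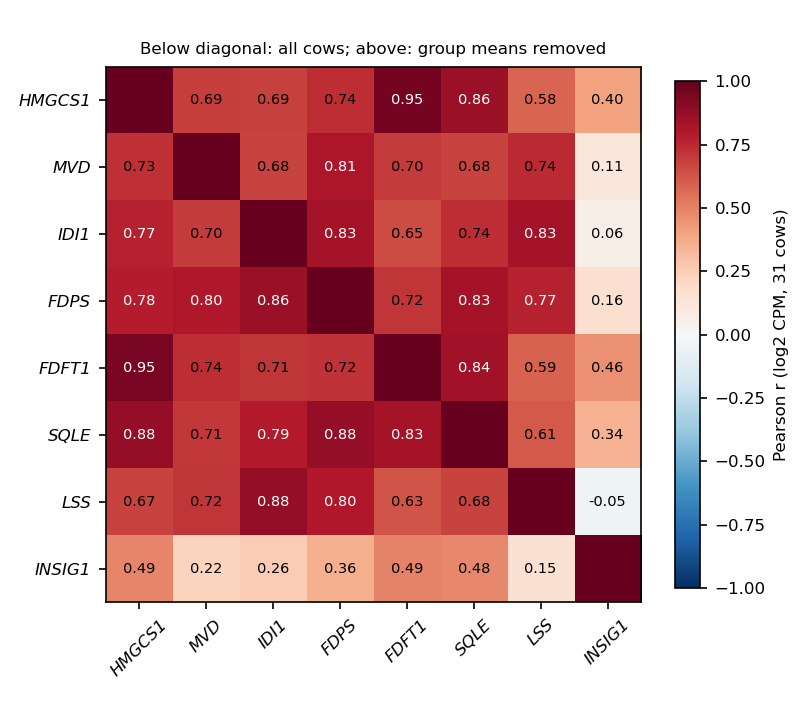
Pearson's r of log2 CPM for the 28 pairs of genes across 31 cows, below the diagonal over all cows and above it with feeding group means removed (colour scale from -1 to 1). The block of 7 enzymes is uniformly high, at 0.63 or more below the diagonal, and the row and column of INSIG1 are pale.

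Most of the 28 pairs also had r above 0 within each feeding group, with 28 in CONHC, 24 in CONLC, 24 in GLYHC and 26 in GLYLC. The lowest r was 0.45 in CONHC, -0.20 in CONLC, -0.25 in GLYHC and -0.17 in GLYLC. The median of the 28 correlations was 0.79 in CONHC, 0.58 in CONLC, 0.79 in GLYHC and 0.70 in GLYLC, each over 7 or 8 cows, and these values are descriptions without a test. With group means removed over all cows the median was 0.69. Without the 2 cows farthest from the median of the score, 134 of CONHC and 127 of GLYHC, it was 0.63. A first principal component of the 8 standardized genes held 72.8% of their variance, or 69% after removal of the group means.

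Genes outside the 8 were ranked by their correlation with the score over the 31 cows, among 11137 genes with a symbol and a mean of at least 1 CPM. Among the nearest were DHCR7 (r = 0.92), which catalyses the last reduction to cholesterol, and CYP51A1 (0.91), which removes a methyl group from lanosterol. In all, 3 genes had r over 0.8, and 52 genes (0.467%) had r over 0.5. MMAB, a cobalamin adenosyltransferase, and C18H16orf70 each had r = 0.78. Next came ACSS2 (0.75), which activates acetate to acetyl-CoA, and the sterol enzymes MVK (0.74) and ACAT2 (0.72). The fatty acid genes ACLY (0.70) and FASN (0.70), PCYT2 (0.70) of phosphatidylethanolamine synthesis and the regulator SREBF2 (0.69) were also among the 12 nearest. At the other end stood POLE (-0.62), a DNA polymerase subunit, the kinase gene MAP3K14 (-0.57) and the potassium channel gene KCNJ15 (-0.53). All of these are descriptions over the same 31 libraries.

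The other 14 enzymes of sterol synthesis were mostly below 0 in GLY against CON as well. In 13 of 14 the log2 fold change was below 0, with a median of -0.27, and 10 had an unadjusted p under 0.05, although 0 were called by edgeR or DESeq2. Of all genes, 48.5% were below 0, 3.92% had such a p and 1.45% had one with the lower level in GLY cows. The number at the unadjusted threshold was 7 without cow 134 of CONHC. DHCR7 had 95.9 ± 28.3 CPM in CON (SD, n = 16) and 64.7 ± 23.7 CPM in GLY (SD, n = 15), with a log2 fold change of -0.56 ± 0.16 (SE, n = 31, p = 0.00158, adjusted p = 0.629). CYP51A1 was at -0.37, MVK at -0.27 and ACAT2 at -0.25, each with an unadjusted p under 0.05. PMVK, phosphomevalonate kinase, was the exception with 0.05 ± 0.12. For HC against LC 0 of the 14 passed the unadjusted threshold, and PMVK had a log2 fold change of -0.21 (n = 31, p = 0.102).

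**Figure D5:**
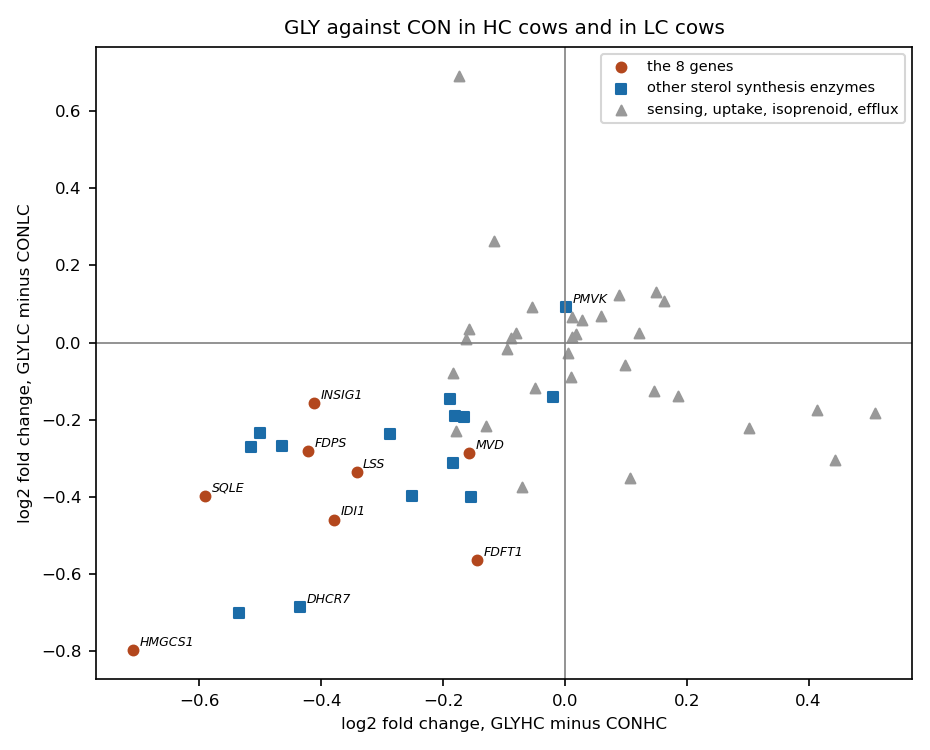
Log2 fold change of GLYHC minus CONHC (horizontal) against that of GLYLC minus CONLC (vertical) for the 8 genes, the 14 other sterol synthesis enzymes and the genes of sensing, uptake, isoprenoid branches and efflux. The 2 axes use different cows. All 8 genes and 13 of the 14 other enzymes lie in the lower left quadrant, PMVK lies at 0.00 and 0.09, and the genes of the other lists surround the origin.

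The regulators and the neighbouring branches did not move as a block. Of 8 genes of sterol sensing and SREBP processing, 4 were above and 4 below 0 in GLY against CON, with a median log2 fold change of 0.01. SREBF2 alone had an unadjusted p under 0.05, with 75.4 ± 8.35 CPM in CON (SD, n = 16), 66.9 ± 6.94 CPM in GLY (SD, n = 15) and a log2 fold change of -0.17 ± 0.06 (SE, p = 0.00668, adjusted p = 0.922). For HC against LC 0 of these 8 passed, and the smallest p value belonged to the protease gene MBTPS1 (log2 fold change 0.07, n = 31, p = 0.189). Over the cows, SREBF2 was the only gene of this list with r over 0.5 with the score.

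Among the uptake and handling genes 9 of 10 were tested, and in GLY against CON 6 were above and 3 below 0, with 0 at an unadjusted p under 0.05 and a median of 0.02. In HC against LC an unadjusted p under 0.05 was found for 3 of the 9 uptake genes, 2 above and 1 below 0, against 13.7% of all genes, and edgeR and DESeq2 called 0. The smallest p values belonged to NPC2, a lysosomal cholesterol carrier, with a log2 fold change of 0.22 ± 0.07 (SE, n = 31, p = 0.0028, adjusted p = 0.125), and to LIPA, the lysosomal lipase that frees cholesterol from its esters, with 0.25 ± 0.11 (SE, p = 0.0292).

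Of the nonsterol isoprenoid branches 7 of 8 genes were tested. In GLY against CON 3 were above and 4 below 0, and 0 had an unadjusted p under 0.05. In HC against LC 1 of 7 did, against 13.7% of all genes, so the count was near the background. This was FNTA, a subunit of the prenyl transferases, with -0.09 ± 0.04 (SE, n = 31, p = 0.0499), followed by COQ2 of ubiquinone synthesis with 0.14 (p = 0.0885). The 8 genes of esterification and efflux were above 0 in 6 and below 0 in 2 in GLY against CON, with 0 at an unadjusted p under 0.05. For HC against LC 1 of 8 did, again near the 13.7% of all genes. This was the sterol transporter ABCG1, with 0.51 ± 0.23 (SE, n = 31, p = 0.0348), and SOAT2, which esterifies cholesterol, had 0.33 (p = 0.0933).

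Markers of other cell types were compared with the score, since the biopsies were whole tissue. The 5 macrophage markers had the largest correlation in size, r = -0.45 for their standardized mean over 31 cows, and their summed level ran from 429.8 to 816.1 CPM in CON and from 453.7 to 803.3 CPM in GLY cows. For the hepatocyte list r was 0.11. The remaining lists lay between -0.29 for proliferating cells (2 of 3 markers tested) and 0.25 for stellate cells and fibroblasts, with endothelium at 0.11, lymphocytes at 0.03, adipocytes at 0.20, bile duct epithelium at -0.26 (3 of 4 tested) and intestinal epithelium at -0.10. No marker tested was at 0 in every cow. Of the 5 markers of stellate cells and fibroblasts, 4 were below 0 in GLY against CON, against 48.5% of all genes. Of the 5, 2 were lower in GLY at an unadjusted p under 0.05, against 1.45% of all genes. The median log2 fold change of the 5 was -0.36, and that of the 8 genes was -0.35. The summed level of the 5 in CON cows ran from 145.2 through a median of 230.8 to 1688 CPM. In GLY cows it ran from 118.6 through 186.8 to 352.6 CPM. The 1688 CPM came from 1 library, cow 103 of CONLC, and its part in these fold changes was not tested. In HC against LC all 5 were below 0 at an unadjusted p under 0.05, while 13.7% of all genes had such a p. Of the 5, edgeR called 1 (1.45% of all genes), the proteoglycan gene DCN, named after its values were seen (-0.50 ± 0.10, SE, adjusted p = 0.0275). In the same comparison 3 of the 5 macrophage markers were above and 2 below 0. Of the 5, 1 was called higher in HC, against 1.45% of all genes called in either direction. Another 1 was lower in HC at an unadjusted p under 0.05 and was not called. Of the 6 intestinal markers 4 were called lower in HC, against 1.45% of all genes called in either direction. The highest sum of the 6 was that of cow 912 of GLYLC, an LC cow. In this library MUC13 had 25.05 CPM and BCO1 46.81 CPM, against at most 0.088 and 0.11 CPM in any other cow. CDH17 was not highest there, with 64.45 CPM against 79.0 CPM elsewhere. How far the 4 calls rest on this 1 library was not tested. The part of macrophage, stellate cell or fibroblast content in the levels of the 8 genes was not tested.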

How the data were processed

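Liver RNA from 31 cows was sequenced by the authors with a stranded mRNA kit. Per the labels and the study's methods, the authors trimmed reads with Trim Galore after FastQC, aligned with HISAT2 2.1.0 against UMD3.1, and with HTSeq 0.8.0 obtained the count of uniquely placed reads for each gene. Which strand setting the counting used is not given in the sources used here. The authors deposited raw counts for 24616 genes, which were used here, and a normalized table, which was not. Each of the 31 columns was matched to its cow by feeding group and animal number, and 0 columns lacked a cow. The labels do not name an extraction or sequencing batch.

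Tests used edgeR 4.0.16 in R 4.3.3: TMM normalization and the quasi-likelihood F test on the 15916 genes whose reads over all libraries came to 20 or more. A model of the 4 groups gave 5 contrasts, and additive models gave HC against LC and GLY against CON over all cows. For a call, p had to be under 0.05 and, after Benjamini-Hochberg adjustment over all genes, under 0.1. Standard errors were derived from the fold changes and their F statistics. CPM values use TMM-scaled library sizes, and correlations use log2 CPM with a prior count of 2. Steps were tested on simulated counts.

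The 8 genes, the pathway lists and the marker lists were chosen with earlier results of these data known. Named were the 8 genes, the paralogue INSIG2, from each pathway list any called gene or otherwise the 2 with the smallest p in HC against LC, and the 12 genes most and 3 least like the score. Genes without a symbol or under 1 CPM were not ranked for likeness. Some genes that this rule covers are not reported here. Alternatives were RLE size factors, other filters on low counts, a robust fit, a stricter adjusted p of 0.05, only the compared groups, DESeq2 1.42.0 and each cow left out. Depth as a covariate was added after the data were seen. Python 3.11.15 with numpy 2.4.6, pandas 2.3.3, scipy 1.17.1 and matplotlib 3.10.9 was used for correlations and figures.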

Additional observations from a re-analysis of the deposited data

Results flagged for a closer look

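In 32 sets of 1 gene in 1 feeding group, the cow at either end was compared with its nearest neighbour on log2 CPM. In 4 sets the gap, as a share of the group's range of log2 CPM, exceeded Dixon's critical value at the 95% level (0.526 for 8 cows). The shares below are on the log2 scale, while the levels beside them are in CPM. Chance flags about 1 in 20 sets. Cow 169 of CONLC was low for 3 enzymes. Its FDPS level was 76.32 CPM against 126.2 CPM in the next cow (share 0.704), its SQLE level 86.96 against 138.6 CPM (share 0.577), and its LSS level 122.8 against 158.0 CPM (share 0.533). These 3 are not independent, since the enzymes vary together across cows. In CONHC, cow 134 had 489.7 CPM of INSIG1 against 317.5 CPM in the next cow (share 0.554).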

How the results depend on the processing

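Of 1232 fold changes of single genes recomputed under the alternatives, 1220 kept their direction and their side of the threshold, 11 turned in direction and 1 passed the threshold. None of the 304 recomputed for GLY against CON over all cows turned. Leaving out 1 cow gave -0.293 to 0.0655 for FDFT1 and -0.224 to 0.0257 for MVD in GLYHC against CONHC, where the sign turned without cow 134 of CONHC, and -0.0168 to 0.0816 for LSS in HC against LC, near 0 throughout. The count of the 8 genes called in GLY against CON over all cows ran from 0 to 1, the latter without cow 209 of GLYLC. It was 0 in every other comparison and alternative. The count at an unadjusted p under 0.05 in GLY against CON ran from 5 to 7, and was 5 with depth as a covariate. In single rations this count ran from 2 to 6 (HC) and from 2 to 5 (LC), and for HC against LC from 0 to 1 over all cows, 0 to 2 in CON and 0 to 1 in GLY cows. The median correlation of 0.72 ran from 0.68 to 0.75 when 1 cow was left out. It was 0.63 without the 2 farthest cows, 0.58 in CONLC alone and 0.79 in GLYHC alone, which hold fewer cows. The cause of the other shifts was not tested. No paired analysis was possible because the groups share no animal number. Each of the 8 genes had at least 482 reads in every library.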
